A study of Mus musculus with 8 samples.

Results

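Interferon response and antigen presentation genes were followed in sorted intestinal stem cells of mice with inducible alleles of β-catenin and Mll1. In cells that express *Lgr5*, tamoxifen stabilizes β-catenin and removes 1 or both functional copies of Mll1, a histone H3K4 methyltransferase encoded by *Kmt2a*. The set holds 43 genes, chosen by name, and all 43 symbols were found once among the 25485 genes of the authors' normalized table and joined by gene identifier to the 53801 genes of the raw count table. All 43 had enough reads to be tested, among 16445 genes that were.

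Cells were taken from mice labelled adult, 4 to 6 weeks old at induction, with the genotype Lgr5-EGFP-IRES-CreERT2; β-catGOF, in which tamoxifen switches on Cre recombinase only in cells that express *Lgr5*. The controls were β-catGOF; Mll1+/- (labelled control) and the knockouts β-catGOF; Mll1-/-, called Mll1+/- and Mll1-/- from here on. Both genotypes thus carried β-catGOF, the Cre driver with its GFP reporter and at least 1 Mll1 allele that Cre deletes. All mice had received tamoxifen at 50 mg/kg and were sampled 10 days after induction. Each of the 8 libraries came from 1 mouse and is named by it: J_7079, J_7100, J_7134 and J_7139 were Mll1+/-, and J_7075, J_7096, J_7135 and J_7136 were Mll1-/-. A wild-type mouse and a mouse with both Mll1 alleles intact were not analysed here. Each difference therefore compares induced loss of both copies with induced loss of 1 on a tumor-initiating background.

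Interferons are signalling proteins that cells release on sensing viral or other foreign nucleic acid. Type I and type III interferons act through receptors that activate transcription factors, among them *Stat2* and *Irf9*, which bind interferon-stimulated response elements (ISRE), and type II interferon acts at gamma-activated sites (GAS). Their targets include antiviral effectors such as the Oas, Ifit and Gbp families and the machinery that cuts proteins and presents their peptides on MHC class I, while MHC class II, which presents peptides to helper T cells, is also made by intestinal epithelium and by Lgr5+ stem cells.

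The libraries held 14468751 to 16847793 counts on genes and 15983 to 17266 genes with at least 10 counts, and levels are given as CPM, counts per 1000000 counts of a library, with library sizes scaled by the trimmed mean of M values (TMM). *Kmt2a*, the targeted gene, was not lower in the libraries labelled Mll1-/-, at 53.5 to 78.5 CPM against 48.9 to 64.9 CPM, and counts over the whole gene do not tell a deleted exon. The share of sorted cells in which deletion took place was not measured here. Library numbers in the table header fall into 2 runs, J_7075, J_7079, J_7096 and J_7100 in run 1 and the other 4 libraries in run 2, each with 2 libraries of each genotype. Sex is not labelled. In run 1 both Mll1-/- libraries held the Y-linked transcript *Eif2s3y* and both Mll1+/- libraries held *Xist*, 2 genes named after their values were seen, so within that run genotype and sex cannot be told apart. In run 2, J_7134 (Mll1+/-) held *Eif2s3y* at 173 CPM and no *Xist*. *Xist* was at 404 CPM in J_7139 (Mll1+/-) and at 759 CPM in J_7136 (Mll1-/-). Over all 8 libraries the sex transcripts were therefore not balanced between the genotypes. J_7135 held both transcripts and stood apart from the rest, its profile matching that of another library with a Spearman's rho of 0.909 at best over the 16445 genes where each of the others reached 0.947 or more, and counts are given with and without it.

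The cells were epithelial by their markers. *Epcam*, an epithelial surface protein, was at 1255 to 1697 CPM and *Lgr5*, which marks crypt stem cells, at 215 to 308 CPM. The 10 epithelial markers summed to 3001 to 3300 CPM in Mll1+/- and 3756 to 4607 CPM in Mll1-/- libraries, without overlap. Of these, 8 were higher and 2 lower in Mll1-/- (median log2 fold change 0.26), with *Krt8* and *Vil1* higher without overlap, and 0 passed. Leukocytes also express MHC class II and interferon-stimulated genes, and 16 of 28 leukocyte markers stayed under 1 CPM in every library. *Ptprc* (CD45) was at 0 to 0.957 CPM, *Cd3e* of T cells at 0 to 0.773 CPM, *Cd79a* of B cells at 0 to 0.180 CPM and *Itgax* of dendritic cells at 0 to 0.0802 CPM. Others were higher, with *Lyz2* of myeloid cells at 0.708 to 5.94 CPM, *Cd68* of macrophages at 1.89 to 9.62 CPM and *Gzma* of cytotoxic lymphocytes at 0 to 9.15 CPM, the highest level being in the Mll1+/- library J_7079. *Itgam* (CD11b), a myeloid marker, was at 2.60 and 3.24 CPM in J_7075 and J_7096, the Mll1-/- libraries of run 1, at 1.12 CPM in J_7136, at 0.452 CPM in J_7139 and at 0 in the other 4 libraries. Of the 28 markers, 2 had enough reads to be tested and 0 passed. Without J_7135, 4 could be tested and 0 passed, with *Itgam* higher (log2 fold change 4.23, edgeR adjusted p = 0.270) and *Gzma* lower (-3.97, edgeR adjusted p = 0.504) in Mll1-/-, both at an unadjusted p under 0.05. The summed level of the 28 was 14.1 to 27.5 CPM in the Mll1+/- libraries and 6.65 to 16.0 CPM in the Mll1-/- libraries. The 12 stem cell markers did not move together. Their sum, 23302 to 27700 CPM in Mll1+/- and 11135 to 17964 CPM in Mll1-/- libraries, was 72.6% to 82.8% *Olfm4*, which was lower in Mll1-/- without overlap, as was *Slc12a2*, whereas *Axin2* was higher without overlap (log2 fold change 0.44), *Lgr5* had a log2 fold change of -0.06 and the median of the 12 was -0.03. The 14 goblet cell markers summed to 635 to 857 CPM against 746 to 1360 CPM, with overlap. Of the 13 that could be tested, 10 were higher in Mll1-/-, with a median log2 fold change of 0.93. *Atoh1*, *Guca2a*, *Muc2* and *Spdef* were higher without overlap, while *Zg16* (-4.03), *Ccl9* (-0.94) and *Spink4* (-0.54) were lower, with overlap. Of 12 Paneth cell markers, 9 were lower and 3 higher (median -1.06). *Defa17* and *Itln1* were lower without overlap and *Mmp7* higher without overlap (log2 fold change 1.04). Lower too were 10 of 10 enterocyte markers tested (median -1.22) and 5 of 6 enteroendocrine markers tested (-1.38). In these lists 0 genes passed with all 8 libraries. Without J_7135, *Apoa1* of enterocytes (edgeR adjusted p = 0.0963) and *Chgb* of enteroendocrine cells (edgeR adjusted p = 0.0943) passed, both lower in Mll1-/-. In that fit 45 of all 17150 genes tested passed. The part of these markers in the results that follow was not tested, and in such pools more cells of a type and more RNA per cell cannot be told apart.

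Over the 8 libraries together, interferon-responsive genes were mostly higher in the Mll1-/- cells, without any single gene passing the test across all genes. Within run 1, where genotype and sex cannot be told apart, 35 of the 43 genes were higher, and within run 2, 23 were. The log2 fold change from Mll1+/- to Mll1-/- was above 0 in 32 of the 43 genes and below 0 in 11, with a median of 0.21 beside 0.0076 over all 16445 genes tested. Each library's own median over the 43 genes was also taken, as log2 CPM minus the gene's mean over the 8 libraries. The SD of these medians among the 4 Mll1+/- libraries was 0.17. At an adjusted p under 0.1 in edgeR's quasi-likelihood test, 0 of the 43 genes were called, and the smallest adjusted p was 0.243. That threshold called 14 of all genes, or 0.0851%. At an unadjusted p under 0.05 there were 11 genes of the set, or 25.6%, against 9.15% of all genes, and all 11 were higher in Mll1-/-, a direction that 5.4% of all genes took at that p. They were *Oas1a*, *Irf7*, *H2-T23*, *Ifit3*, *Gbp7*, *H2-D1*, *Gbp2*, *Usp18*, *Irf9*, *Tap1* and *Nlrc5*. In 4 of the 43 genes, or 9.30%, the genotypes did not overlap, with every Mll1-/- library above every Mll1+/- library in *Oas1a*, *Irf7*, *H2-T23* and *Usp18*. The genotypes were apart in 6.28% of all genes, and in 3.34% with Mll1-/- above. Other tools called more genes: the DESeq2 Wald test called 5 genes of the set (2.47% of all genes) and limma-voom with quality weights called 1, *Oas1a* (0.626% of all genes). Without J_7135, 0 genes were called by edgeR and 8 had an unadjusted p under 0.05, beside 9.07% of all genes, with a median log2 fold change of 0.27. Leaving out J_7075 instead left 6 such genes, and leaving out J_7079 or J_7100 left 7 each. The share of all genes in these fits is not given here, so an excess in the set cannot be read from them.

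**Figure D1:**
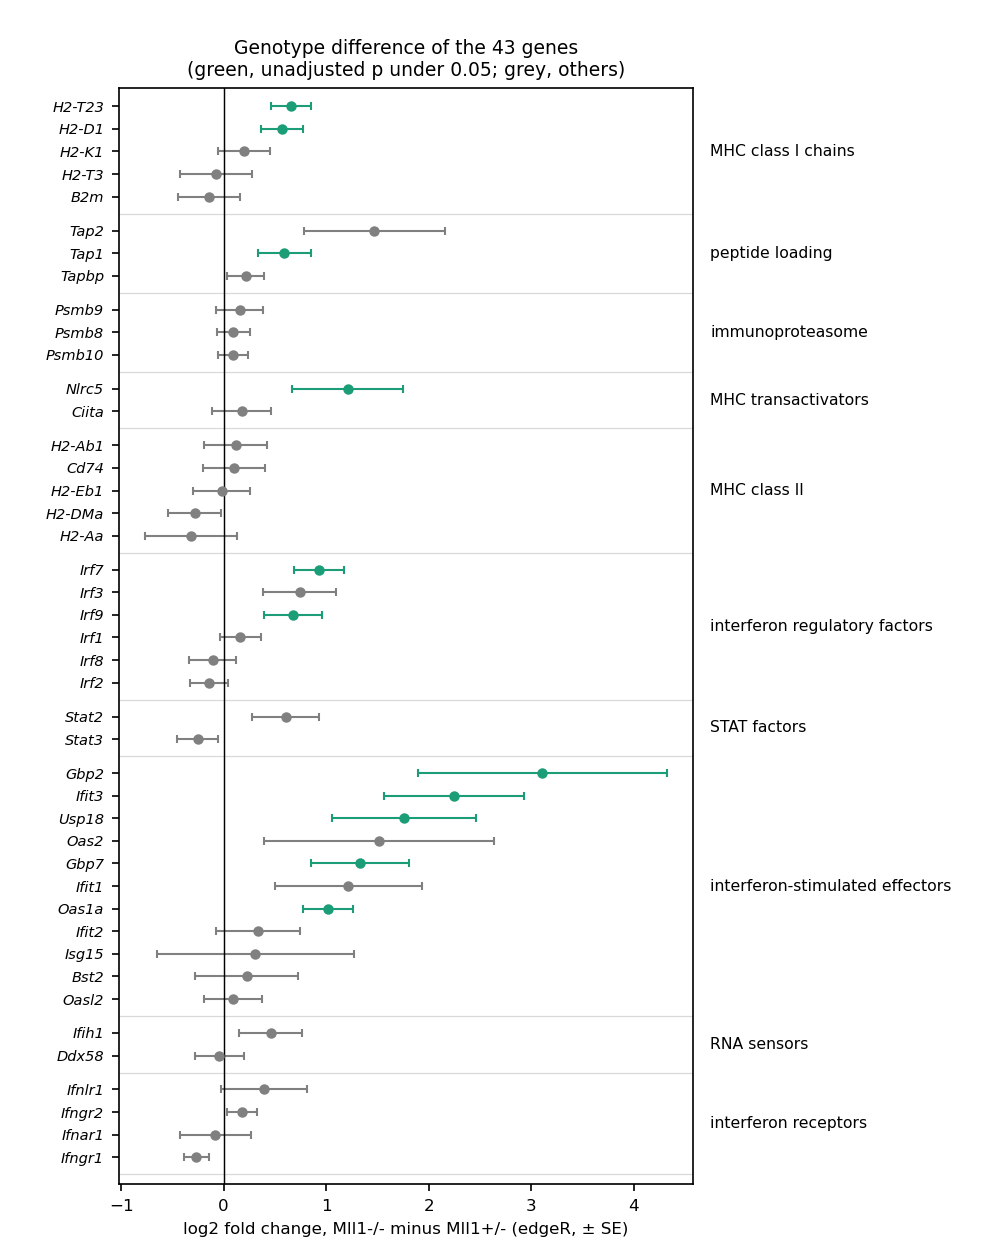
Log2 fold change of each of the 43 genes, Mll1-/- minus Mll1+/- (x axis, log2 units, edgeR, 4 libraries per genotype), grouped by role, with bars of 1 standard error. The 11 genes with an unadjusted p under 0.05 are green and all lie right of 0, the effectors reach 3.11 (*Gbp2*), and the MHC class II genes lie between -0.32 and 0.12.

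The promoter letters of these genes are shown first, because the ISRE is the sequence through which type I and III interferons act. RefSeq windows (build GRCm38.p6) were matched by symbol for 36 of the 43 genes. In the 250 bases before the RefSeq start of the gene, the ISRE core was searched on both strands. The core, which is GAAA, any 2 bases and GAAA again, was found in 11 of the 36 genes (30.6%) and in 936 of 27025 genes in the whole table (3.46%). The GAS TTCNNNGAA, which reads the same on both strands, was found in 8 of the 36 (22.2%) and in 8.13% of all genes. In *Bst2* the GAS match shared bases with an ISRE match. Of the 11 genes with an unadjusted p under 0.05, 9 had a window and 5 of these held an ISRE core. Their 30-base windows follow, with the match in capitals, 5′ to 3′ on the strand of the gene.
Oas1a: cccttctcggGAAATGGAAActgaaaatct
Oas1a: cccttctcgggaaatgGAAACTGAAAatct
H2-T23: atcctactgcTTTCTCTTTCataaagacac
Ifit3: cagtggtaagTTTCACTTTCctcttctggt
Ifit3: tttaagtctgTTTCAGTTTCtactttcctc
Gbp7: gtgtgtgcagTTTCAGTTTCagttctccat
Gbp2: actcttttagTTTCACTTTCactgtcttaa

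These windows lie at chr5:120907526-120907555 (minus strand, *Oas1a*, 1 window with 2 cores that share 4 bases), chr17:36032806-36032835 (minus strand, *H2-T23*), chr19:34583363-34583392 and chr19:34583397-34583426 (plus strand, *Ifit3*), chr3:142530273-142530302 (plus strand, *Gbp7*) and chr3:142620594-142620623 (plus strand, *Gbp2*). The cores began 20 and 14 bases before the RefSeq start of *Oas1a*, 124 before that of *H2-T23*, 156 and 122 before that of *Ifit3*, 53 before that of *Gbp7* and 59 before that of *Gbp2*. For *H2-T23* and *Gbp2* the annotation used for counting starts further upstream, so that their cores lie inside the gene intervals given below. The other 6 genes with a core were *B2m*, *Isg15*, *Irf2*, *Bst2*, *Stat2* and *Ifit1*, none of which had an unadjusted p under 0.05. *B2m* and *Ifit1* are shown for comparison, as genes that hold the core and had no such p.
B2m: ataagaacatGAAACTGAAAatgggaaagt
Ifit1: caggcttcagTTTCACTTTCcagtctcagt
Ifit1: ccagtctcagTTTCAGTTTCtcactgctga

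They lie at chr2:122147538-122147567 (plus strand, *B2m*) and at chr19:34640775-34640804 and chr19:34640794-34640823 (plus strand, *Ifit1*). The letters therefore occur in genes on both sides of the p of 0.05, and a match is a description of the sequence and not of binding.

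The interferon-stimulated effectors held the widest differences. All 11 had a log2 fold change above 0, with a median of 1.22, and 5 had an unadjusted p under 0.05 (*Oas1a*, *Ifit3*, *Gbp7*, *Gbp2* and *Usp18*). Their summed level was 89.1, 78.6, 76.3 and 111 CPM in J_7079, J_7100, J_7134 and J_7139 and 216, 185, 127 and 100.1 CPM in J_7075, J_7096, J_7135 and J_7136. Both Mll1-/- libraries of run 1 stood well above the others, J_7135 was next, and J_7136 lay below J_7139 of the control genotype. Mitochondrial genes took 24.9%, 28.7%, 30.1% and 23.3% of counts in the Mll1+/- libraries and 18.9%, 22.3%, 17.1% and 27.1% in the Mll1-/- libraries, in the same order, so that the 3 libraries with the highest sums had the lowest mitochondrial shares. *Itgam* was also highest in J_7075 and J_7096. The part of either in the effector levels was not tested.

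*Oas1a* makes 2'-5'-oligoadenylates that activate the antiviral nuclease RNase L, and lies at chr5:120896256-120907521 in mm10. It was at 14.1, 14.4, 23.3 and 22.4 CPM in the Mll1+/- libraries J_7079, J_7100, J_7134 and J_7139 and at 31.1, 37.0, 48.9 and 33.4 CPM in the Mll1-/- libraries J_7075, J_7096, J_7135 and J_7136. Every Mll1-/- library lay above every Mll1+/- library. Its log2 fold change was 1.02 with a standard error (SE) of 0.24, and the adjusted p was 0.243 in edgeR, 0.00722 in DESeq2 and 0.0979 in limma-voom. The difference was 1.25 in run 1 and 0.82 in run 2. Of the 31-base words in its transcripts, 68.8% also occur in other genes, mainly its neighbour *Oas1g*. The authors counted uniquely mapped reads, so reads that match both genes can be missing from both counts, and a sum does not restore them. The sum of *Oas1a* and *Oas1g* was 19.9 to 29.7 CPM against 43.3 to 63.3 CPM, again without overlap.

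*Ifit3* and its relatives *Ifit1* and *Ifit2* bind foreign RNA. *Ifit3* (chr19:34583531-34588731) was at 1.38, 0.914, 0.962 and 2.20 CPM in Mll1+/- and at 12.8, 9.04, 2.76 and 1.51 CPM in Mll1-/-. The 2 Mll1-/- libraries of run 1 were the highest, and J_7136 lay within the control range. The fold change of *Ifit3* on the log2 scale was 2.25 (SE 0.68, edgeR adjusted p = 0.384), with 3.22 in run 1 and 0.47 in run 2, and DESeq2 gave an adjusted p of 0.0530. As 61.8% of its 31-base words occur elsewhere, mainly in *Ifit3b*, the pair was also summed, at 1.12 to 2.52 CPM in Mll1+/- and 2.97 to 16.9 CPM in Mll1-/-, which did not overlap. *Ifit1* showed the same split at 1.68, 4.92, 2.57 and 1.74 CPM against 15.2, 5.73, 3.25 and 1.18 CPM, with a log2 fold change of 1.22 (SE 0.72, edgeR adjusted p = 0.655). *Ifit2* was at 8.20 to 15.8 CPM and 7.25 to 25.6 CPM, and its difference was 1.14 in run 1 and -0.76 in run 2.

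*Gbp2* and *Gbp7* are guanylate-binding GTPases that attack intracellular pathogens. *Gbp2* (chr3:142620602-142638008) was at 1.02, 1.55, 0.321 and 2.39 CPM in Mll1+/- and at 26.9, 16.0, 0.0541 and 3.15 CPM in Mll1-/-, so that J_7135 was the lowest of all 8 libraries and both run 1 knockouts were the highest. It had the widest log2 fold change of the set in the edgeR fit, 3.11, with a standard error of 1.21 and an adjusted p of 0.499, and without J_7135 it was 3.52 with an adjusted p of 0.131. DESeq2 called it on all 8 libraries with an adjusted p of 0.0943. *Gbp7* (chr3:142530342-142550149) was at 19.8, 14.5, 4.65 and 13.4 CPM against 45.0, 46.2, 26.5 and 14.2 CPM, and J_7136 alone of the Mll1-/- libraries lay in the control range. The log2 fold change of *Gbp7* was 1.33 (SE 0.48, edgeR adjusted p = 0.478), near 1.43 in run 1 and 1.29 in run 2.

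*Usp18* removes the ubiquitin-like protein *Isg15* from its targets and restrains the type I receptor. It was at 1.38, 2.32, 1.76 and 0.129 CPM in Mll1+/- and at 5.55, 2.90, 7.57 and 2.96 CPM in Mll1-/-, low levels that did not overlap. The edgeR fit gave *Usp18* a log2 fold change of 1.76 (SE 0.70, edgeR adjusted p = 0.505), and its difference was wider in run 2 (3.14) than in run 1 (1.15). *Isg15* itself was scarce, at 0 to 0.883 CPM and 0.162 to 0.984 CPM, near the 0.162 to 0.241 CPM that 3 counts represent in these libraries, and its log2 fold change of 0.31 had a standard error of 0.96. *Oas2* was likewise at 0 to 1.60 CPM and 0.270 to 2.42 CPM. *Isg15* and *Oas2* had 0 counts in J_7100, and a difference between the genotypes was not detectable in them at this depth. *Oasl2* (log2 fold change 0.09) and *Bst2*, a tetherin that holds virus particles at the cell surface (0.22), overlapped between the genotypes.

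**Figure D2:**
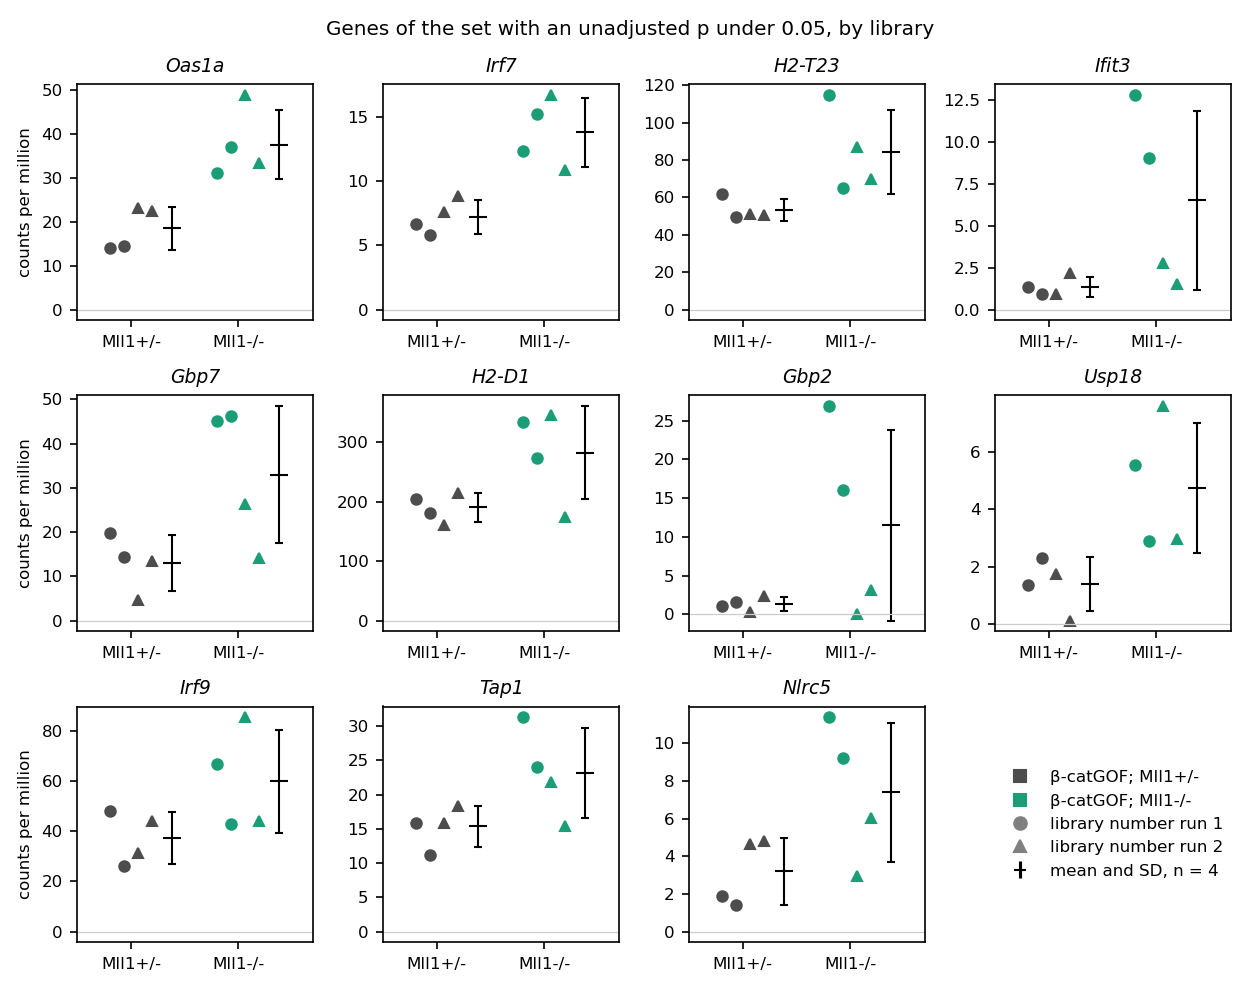
CPM (y axis, linear, TMM-scaled) of the 11 genes with an unadjusted p under 0.05 in each library, grey for Mll1+/- and green for Mll1-/-, circles for run 1 and triangles for run 2, with the mean and SD of 4 libraries in black. *Oas1a*, *Irf7*, *H2-T23* and *Usp18* do not overlap between genotypes, while in *Ifit3* and *Gbp2* the 2 circles of the Mll1-/- group lie far above its triangles.

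Among the transcription factors of the pathway, *Irf7* and *Irf9* were higher in Mll1-/- at an unadjusted p under 0.05. *Irf7*, the factor that amplifies type I interferon production (chr7:141262706-141266481), was at 6.64, 5.77, 7.62 and 8.85 CPM in Mll1+/- and at 12.3, 15.2, 16.7 and 10.8 CPM in Mll1-/-. The lowest Mll1-/- library exceeded the highest Mll1+/- library. On the log2 scale the fold change of *Irf7* was 0.93 (SE 0.25, edgeR adjusted p = 0.296), with 1.14 in run 1 and 0.71 in run 2, and DESeq2 gave an adjusted p of 0.0324. Under 1% of its 31-base words occur elsewhere. *Irf9*, the DNA-binding partner of *Stat2*, was at 48.0, 26.1, 31.4 and 43.9 CPM against 67.0, 42.7, 85.4 and 44.2 CPM, overlapping, with a log2 fold change of 0.68 (SE 0.28, edgeR adjusted p = 0.524).

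*Irf3*, which relays RNA and DNA sensing, was at 24.3 to 32.4 CPM in every library of Mll1+/- and both run 1 libraries of Mll1-/-, but at 85.6 CPM in J_7135 and 44.7 CPM in J_7136. Its log2 fold change of 0.74 (SE 0.36, edgeR adjusted p = 0.574) fell to 0.27 without J_7135. *Stat2* was at 6.52, 9.56, 12.3 and 6.13 CPM against 17.3, 15.7, 10.98 and 8.60 CPM (log2 fold change 0.61, SE 0.33, edgeR adjusted p = 0.623), highest in the run 1 knockouts. *Irf1* (0.16), *Irf2* (-0.14), *Irf8* (-0.10) and *Stat3* (-0.25) had log2 fold changes of less than 0.3 in size and an edgeR adjusted p of at least 0.748.

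The class I heavy chains differed from each other and from *B2m*, the light chain they share. *H2-T23*, which encodes Qa-1, a nonclassical chain read by inhibitory receptors of natural killer cells (chr17:36029773-36032855), was at 61.9, 49.7, 51.1 and 50.6 CPM in Mll1+/- and at 115, 64.9, 87.2 and 70.0 CPM in Mll1-/-, without overlap. For *H2-T23* the log2 fold change was 0.66 (SE 0.19, edgeR adjusted p = 0.371), with nearly equal differences of 0.64 in run 1 and 0.62 in run 2, and DESeq2 gave an adjusted p of 0.0733. Of its 31-base words, 25.8% occur in other genes.

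*H2-D1*, a classical chain, was at 205, 180, 161 and 215 CPM against 334, 273, 346 and 175 CPM, and J_7136 alone of the Mll1-/- libraries lay in the control range. Its log2 fold change was 0.57 (SE 0.21, edgeR adjusted p = 0.481). *H2-K1*, the other classical chain, was at 341, 297, 238 and 398 CPM against 536, 401, 243 and 284 CPM, higher in the Mll1-/- libraries of run 1 (difference 0.54) and not of run 2 (-0.22). These 2 chains share 26.9% and 22.8% of their words with other genes, and their sum overlapped between genotypes, at 398 to 613 CPM and 459 to 869 CPM. *H2-T3*, the thymus leukemia antigen of intestinal epithelium, was at 15.6 to 28.9 CPM and 11.4 to 35.9 CPM.

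*B2m* was the most abundant gene of the set per length, at 2407 CPM per kilobase over all libraries, the rank of 19 among 40036 genes with a count. It was at 2423, 2315, 1721 and 2233 CPM in Mll1+/- and at 2517, 2971, 1198 and 1182 CPM in Mll1-/-. The 2 run 1 knockouts were the highest libraries and the 2 run 2 knockouts the lowest, so that the log2 fold change of -0.14 (SE 0.30, edgeR adjusted p = 0.921) averages a difference of 0.21 in run 1 and -0.72 in run 2.

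Of the 6 genes that supply peptides, *Tap1* had an unadjusted p under 0.05. *Tap1*, a subunit of the transporter that moves peptides into the endoplasmic reticulum, was at 15.9, 11.2, 15.9 and 18.4 CPM against 31.3, 23.98, 21.8 and 15.4 CPM, highest in the run 1 knockouts (log2 fold change 0.59, SE 0.26, edgeR adjusted p = 0.540). Its partner *Tap2* was at 1.04 to 3.10 CPM in Mll1+/- and 2.17 to 3.94 CPM in 3 Mll1-/- libraries, but at 17.2 CPM in J_7135, and its log2 fold change of 1.47 became 0.36 without that library. Exons of another annotated gene cover 18.5% of *Tap2*, and strand was not used in counting. *Tapbp* (tapasin), which bridges the transporter and class I, was at 52.0 to 84.2 CPM and 65.5 to 92.7 CPM. The immunoproteasome subunits *Psmb8*, *Psmb9* and *Psmb10* had log2 fold changes of 0.10, 0.16 and 0.09, each smaller than its standard error of 0.16, 0.23 and 0.15. *Psmb9* was at 56.1 to 60.4 CPM in the Mll1+/- libraries and at 75.8, 71.0, 74.5 and 35.2 CPM in the Mll1-/- libraries, of which only J_7136 was below the controls.

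*Nlrc5*, the transactivator of class I genes, was at 1.91, 1.41, 4.65 and 4.84 CPM against 11.4, 9.21, 2.97 and 6.04 CPM. Run 1 separated the genotypes (difference 2.62) and run 2 did not (-0.16). The log2 fold change of *Nlrc5* was 1.21 (SE 0.54, edgeR adjusted p = 0.546). *Ciita*, the transactivator of class II genes, was at 9.21 to 21.8 CPM and 13.5 to 16.6 CPM, and its log2 fold change of 0.17 was smaller than its standard error of 0.29.

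The MHC class II genes were abundant and varied among mice of the same genotype, with overlap between genotypes in all 5. Per kilobase over all libraries, *H2-Ab1* was at 199 CPM, *H2-Eb1* at 178 CPM, *Cd74* at 118 CPM and *H2-Aa* at 114 CPM, next to *H2-K1* at 131 CPM, and *H2-DMa*, which loads peptide onto class II, at 39.3 CPM. The 5 genes summed to 1227, 784, 524 and 1431 CPM in J_7079, J_7100, J_7134 and J_7139 and to 1264, 966, 948 and 691 CPM in J_7075, J_7096, J_7135 and J_7136. J_7139 was the highest and J_7134 the lowest of the Mll1+/- libraries in each of the 5 genes. The 28 leukocyte markers summed to 14.1 CPM in J_7139 and 20.5 CPM in J_7134, and their part in these levels was not tested.

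*H2-Aa*, the alpha chain, was at 330, 161, 115 and 342 CPM against 305, 246, 105 and 104 CPM (log2 fold change -0.32, SE 0.45, edgeR adjusted p = 0.877). *H2-Ab1*, its beta chain partner, was at 357, 225, 169 and 495 CPM against 422, 304, 357 and 270 CPM (0.12, SE 0.31, edgeR adjusted p = 0.941). *Cd74*, the invariant chain that guides class II through the cell, was at 191, 141, 85.3 and 224 CPM against 189, 154, 228 and 115 CPM. The class II genes were not in step in J_7135, which held the highest *Cd74* of all libraries and nearly the lowest *H2-Aa*. *H2-Eb1* (log2 fold change -0.02) and *H2-DMa* (-0.28) overlapped between the genotypes, and 0 of the 5 class II genes had an unadjusted p under 0.05.

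Sensors and receptors overlapped between the genotypes. *Ddx58* (RIG-I) was at 24.3 to 39.0 CPM and 24.9 to 40.8 CPM, and *Ifih1* (MDA5), the other cytosolic sensor of viral RNA, at 18.3 to 50.9 CPM and 34.9 to 56.0 CPM with a log2 fold change of 0.46 (SE 0.31, edgeR adjusted p = 0.697). Of the receptors, *Ifngr1*, the ligand-binding chain for interferon gamma, was at 169, 182, 162 and 205 CPM against 154, 162, 151 and 129 CPM, with a log2 fold change of -0.27 (SE 0.12, edgeR adjusted p = 0.556). Only J_7096 of the Mll1-/- libraries reached into the control range. Its partner *Ifngr2* (0.18), the type I receptor chain *Ifnar1* (-0.08) and the type III receptor chain *Ifnlr1* (0.39) overlapped between genotypes in level, and per kilobase *Ifngr1* was at 57.7 CPM and *Ifnlr1* at 1.02 CPM. Interferons themselves were almost absent from the reads. The 21 interferon genes looked up after the values were seen held 68 counts over all 8 libraries together, the largest a count of 20 in *Ifnk*, while *Ifng*, *Ifnl2* and *Ifnl3* had 0 counts in every library, which allows up to 0.241 CPM in the shallowest.

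**Figure D3:**
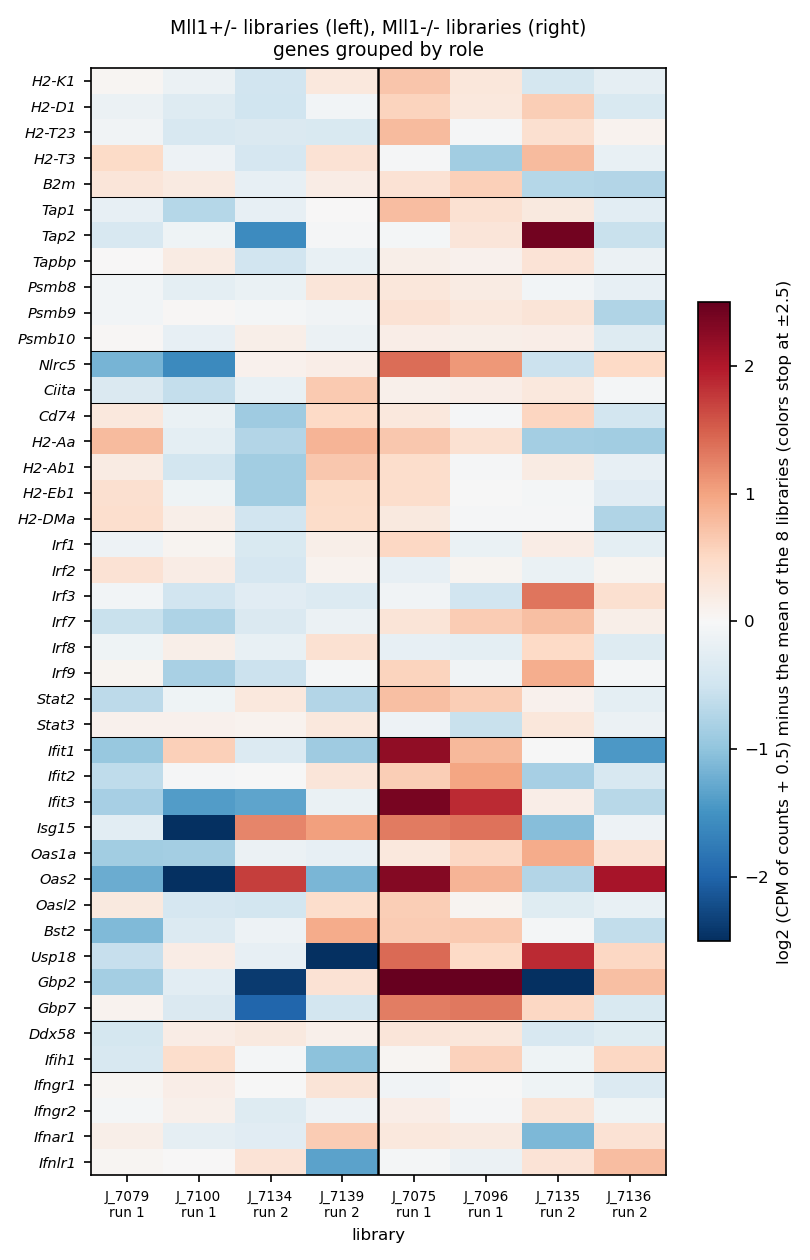
Each of the 43 genes (rows, grouped by role) in each library (columns, Mll1+/- left of the line and Mll1-/- right), colored by log2 CPM minus the mean of the 8 libraries. J_7075 and J_7096 are red through most effectors and *Nlrc5*, J_7135 stands out in *Tap2* and *Irf3*, and the class II rows vary within both genotypes.

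The highest and lowest levels gathered in a few libraries. J_7075 and J_7096, the Mll1-/- mice of run 1, were the 2 highest libraries in 12 of the 43 genes, or 27.9%, an order found in 3.7% of all genes tested. The 12 were *H2-K1*, *B2m*, *Tap1*, *Nlrc5*, *Stat2*, *Ifit1*, *Ifit2*, *Ifit3*, *Isg15*, *Gbp2*, *Gbp7* and *Ddx58*. J_7075 was the highest library in 13 genes of the set, or 30.2%, against 8.8% of all genes. J_7135 was the highest in 14, or 32.6%, but in 24.4% of all genes as well. J_7134 and J_7100, both Mll1+/-, were the lowest library in 12 and 11 genes, and J_7136, of Mll1-/-, in 8. J_7139, of Mll1+/-, was the highest in 9, or 20.9%. For these counts the share of all genes was not computed.

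The median genotype difference was wider in run 1 than in run 2. In run 1 the median difference of mean log2 CPM was 0.40 over the 43 genes, with 35 above 0, and in run 2 it was 0.08, with 23 above 0, while over all genes tested the medians were -0.0054 and -0.05. In 19 of the 43 genes the difference was above 0 in both runs. Among the 11 effectors the medians were 1.43 in run 1, with 11 above 0, and -0.11 in run 2, with 5 above 0. The difference between the runs was tested directly, as an interaction of genotype and run in edgeR, a fit added after the values were seen. At an unadjusted p under 0.05 it took in 8 genes of the set, *B2m*, *Bst2*, *Ddx58*, *Ifit2*, *Ifit3*, *Irf3*, *Isg15* and *Nlrc5*, against 6.86% of all genes, and 0 of the 43 passed an adjusted p under 0.1 (smallest adjusted p = 0.662), nor did any of the 16445 genes. Sex and genotype move together within run 1, and their parts in the wider difference there cannot be told apart.

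**Figure D4:**
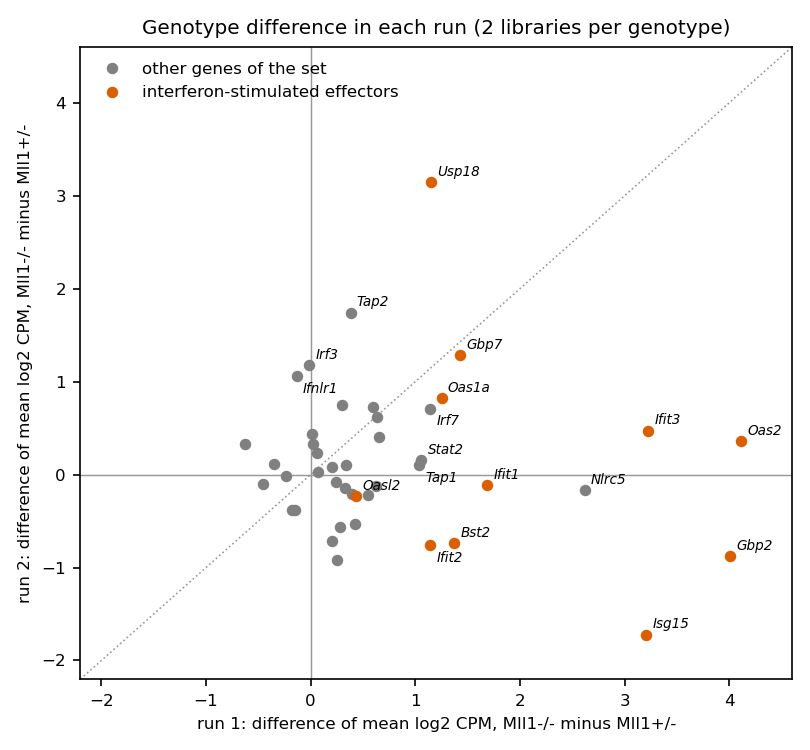
Genotype difference of each of the 43 genes in run 1 (x axis) and in run 2 (y axis), both as the difference of mean log2 CPM between 2 Mll1-/- and 2 Mll1+/- libraries, with effectors in orange and the dotted line marking equal differences. *Oas1a*, *Irf7* and *Gbp7* lie near the line, *Gbp2*, *Ifit3*, *Isg15* and *Nlrc5* lie far below it, and *Usp18* and *Tap2* lie above it.

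A fit with the log2 ratio of *Xist* to *Eif2s3y* as a covariate was added after the values were seen, to hold the sex transcripts level. It left 3 of the 43 genes at an unadjusted p under 0.05, *Oas1a*, *Irf7* and *H2-T23*. That is a smaller share than the 9.44% of all genes, so under this covariate the set held no excess of such genes. With the run as a term in edgeR, 8 genes were left, against 9.98% of all genes. The same 3 genes had an unadjusted p under 0.05 in each of the 8 other settings and with each library left out in turn. Under the covariate their log2 fold changes were 0.96 for *Oas1a*, 0.87 for *Irf7* and 0.61 for *H2-T23*, close to those of the fit without it, while *Ifit3* went from 2.25 to 1.55 and *Gbp2* from 3.11 to 2.47.

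A longer list of 114 other interferon and antigen presentation genes was drawn up from textbook knowledge, with earlier results of these data known. It was read in the same 8 libraries, and some of its genes share sequence with the set, as *Oas1g* does with *Oas1a*. It is therefore not separate evidence. Of the 114 genes, 106 could be tested, 72 had a log2 fold change above 0 and 34 below, and the median was 0.27. The library medians of these 106 genes had an SD of 0.13 among the 4 Mll1+/- libraries. At an adjusted p under 0.1 edgeR called 0 of them (smallest adjusted p = 0.195), DESeq2 called 8 and limma-voom 4. At an unadjusted p under 0.05 there were 20, or 18.9%, of which 17 were higher (5.4% of all genes) and 3 lower (3.75%). Without J_7135 there were 24, beside 9.07% of all genes. There were 11 without J_7100, 12 without J_7134 and 13 without J_7096, fits for which the share of all genes is not given here. The genotypes did not overlap in 11 genes, 7 of them higher and 4 lower in Mll1-/-, beside 3.34% and 2.94% of all genes. Its median difference was 0.44 in run 1 and -0.04 in run 2, and J_7075 and J_7096 were the 2 highest libraries in 24 of the 106 genes, or 22.6%.

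Several of the 17 are close relatives of the genes above. *Ifi27l2a*, an interferon-induced protein, was at 8.38, 5.98, 18.5 and 16.4 CPM in Mll1+/- and at 52.9, 58.0, 35.0 and 33.2 CPM in Mll1-/-, with no overlap (log2 fold change 1.86, SE 0.38, edgeR adjusted p = 0.195). *Mx2*, an antiviral dynamin-like GTPase, was at 1.14, 0.984, 1.68 and 1.81 CPM against 9.26, 4.75, 5.30 and 3.48 CPM (2.02, SE 0.42, edgeR adjusted p = 0.200). *Oas1g*, the neighbour of *Oas1a*, was at 4.17 to 7.30 CPM against 12.2 to 14.4 CPM (1.17, SE 0.25, edgeR adjusted p = 0.200). In each of these 3 genes all 4 Mll1-/- libraries lay above all 4 Mll1+/- libraries, and in both runs the difference had the same direction. *Gbp3* (1.88), *Gbp9* (1.27), *Herc6* (1.69) and *Uba7* (1.47) also did not overlap, the last 2 being enzymes of the *Isg15* conjugation pathway, whereas *Ifit3b* (2.69), *Tgtp1* (1.90), *Irf5* (1.63), *H2-Q10* (1.12), *Ifit1bl1* (1.10), *Tmem173* (1.01), *Ly6e* (0.73), *Rtp4* (0.60), *Xaf1* (0.52) and *Ifi27l2b* (0.33) did overlap.

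The 3 that were lower belong to antigen presentation. *Rfxap*, a subunit of the RFX complex that binds class II promoters, was at 17.5, 16.1, 18.0 and 19.7 CPM in Mll1+/- and at 11.3, 8.86, 4.49 and 6.90 CPM in Mll1-/- (log2 fold change -1.17, SE 0.29, edgeR adjusted p = 0.251). *Ctss*, the protease that trims the invariant chain, was at 98.7, 72.8, 63.7 and 87.3 CPM against 60.9, 58.1, 28.2 and 40.3 CPM (-0.78, SE 0.26, edgeR adjusted p = 0.429), and *Canx*, the chaperone calnexin, was lower by less (-0.27). In these 3 genes every Mll1-/- library lay below every Mll1+/- library. The 5 most abundant genes of the list per length were *Ifitm3*, *Ifitm2*, *Psme2b*, *Ifi27l2b* and *Pdia3*. *Ifitm3*, which blocks virus entry, was at 1250 to 1743 CPM and 1167 to 1892 CPM with a log2 fold change of -0.04, and *Ifitm2*, *Psme2b* and *Pdia3* had log2 fold changes of -0.12, -0.02 and 0.17.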

How the data were processed

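RNA was measured by Smart-seq2 of pools of sorted Lgr5+ cells, 1 pool per mouse, in 4 Mll1+/- and 4 Mll1-/- mice. The deposited count table holds raw counts per gene: per the file headers and the labels, the authors aligned reads to mm10 with GSNAP and counted them with featureCounts (1.6.3) on Ensembl release 92 without using strand. The second deposited table holds a normalized signal, the counts divided by 1 DESeq2 (1.22.2) size factor per library, and the authors' own comparison columns in it were not used. It served only to pair symbols with gene identifiers, and every value was computed from the raw counts.

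Genes were filtered with filterByExpr (minimum count 10), scaled by TMM and tested two-sided with edgeR (4.0.16) quasi-likelihood in R (4.3.3), with Benjamini-Hochberg adjustment over all 16445 genes and a threshold of 0.1, the study's rate. Alternatives were DESeq2 (1.42.0), limma-voom (3.58.1), other scalings and filters, a run term and each library left out. Differences within a run used log2 CPM of counts plus 0.5. The procedure was tested on simulated data that held no run effect, no sex difference and no outlying library, so that test does not cover these features. In the main fit each p-value sets the genotype difference against the spread between mice, with 4 libraries per genotype. The genes and lists were chosen with earlier results of these data known. All 43 genes are named, and of the other 114 those with an adjusted p under 0.1 or an unadjusted p under 0.05 and the 5 most abundant per length. Spike-in transcripts, at most 36 counts a library, were left out of library sizes. Intervals of counting error are not given, since PCR copies are not independent molecules.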

Additional observations from a re-analysis of the deposited data

Results flagged for a closer look

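Within a genotype, 8 of the 86 groups of 4 libraries held 1 library far from the other 3 (a gap to the nearest, over the range, past Dixon's 95% limit), where chance gives about 1 in 20, or 4.3. Of these, 3 were in J_7135, which holds both *Xist* and Y-linked transcripts: *Tap2* at 17.2 CPM beside 2.17 to 3.94 CPM, *Irf8* at 48.0 CPM beside 27.4 to 29.7 CPM and *Ifnar1* at 8.76 CPM beside 22.2 to 24.5 CPM. J_7136 was low in both immunoproteasome genes that met this limit, *Psmb9* at 35.2 CPM beside 71.0 to 75.8 CPM and *Psmb10* at 112 CPM beside 153 to 157 CPM. Among the Mll1+/- libraries, *H2-T23* was at 61.9 CPM in J_7079 beside 49.7 to 51.1 CPM, *Stat3* at 33.8 CPM in J_7139 beside 29.8 to 30.4 CPM, and *Oas2* at 1.60 CPM in J_7134 beside 0 to 0.194 CPM.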

How the results depend on the processing

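The log2 fold change kept its sign in 26 of the 43 genes under all 8 other settings and with each of the 8 libraries left out, and no gene that changed sign had a size above 0.34. Of all genes, upper-quartile scaling called 8, no filter 47 (3359 at an unadjusted p under 0.05), at least 10 counts in every library 34, DESeq2 406, limma-voom 103, and the run term and the *Xist* covariate 0 each. Of the 43 genes, DESeq2 called 5 and limma-voom 1, and of the 106 others no filter called 1, the stricter filter 1, DESeq2 8 and limma-voom 4. The *Xist* covariate left 3 of the 43 and 13 of the 106 at an unadjusted p under 0.05, beside 9.44% of all genes. The cause of these shifts was not tested. The sign turned in limma-voom for *B2m* (0.040), *H2-Aa* (0.0021), *H2-Eb1* (0.085), *Ddx58* (0.17) and *Ifnar1* (0.12), and with the covariate for *H2-T3* (0.090), *Psmb10* (-0.013), *H2-Eb1* (0.16), *Irf2* (0.0060), *Isg15* (-0.15) and *Ifnar1* (0.012).

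With 1 library left out, edgeR called 0 to 45 of all genes (45 without J_7135), and 6 to 14 of the 43 and 11 to 25 of the 106 had an unadjusted p under 0.05. The share of all genes at that p was 9.07% without J_7135 and is not given for the other libraries left out. The log2 fold change ranged over both signs for *H2-K1* (-0.044 to 0.36), *H2-T3* (-0.44 to 0.14), *B2m* (-0.41 to 0.038), *Cd74* (-0.11 to 0.30), *H2-Ab1* (-0.087 to 0.43), *H2-Eb1* (-0.23 to 0.15), *Irf1* (-0.013 to 0.27), *Irf8* (-0.33 to 0.012), *Ifit2* (-0.015 to 0.57), *Isg15* (-0.10 to 0.74), *Oasl2* (-0.14 to 0.27), *Bst2* (-0.019 to 0.73), *Ddx58* (-0.17 to 0.076) and *Ifnar1* (-0.20 to 0.16). Depth limits *Isg15*, *Oas2*, *Usp18* and *Gbp2*, the 4 genes with under 10 counts in at least 1 library, and they leave the test when every library must hold 10. No paired analysis was possible because the labels give the genotypes no shared replicate numbers.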
